A study of Mus musculus with 6 samples.

Results

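The DNA methyltransferases, the TET dioxygenases and their nearest partners were described as a group of 9 genes listed by name: Dnmt1, Uhrf1, Dnmt3a, Dnmt3b, Dnmt3l, Tet1, Tet2, Tet3 and Tdg. They are 9 of the 52609 genes and 88 of the 133399 transcripts that were matched to the annotation. Poly(A) RNA came from mouse epiblast stem cells, a primed pluripotent cell type obtained by dissecting the epiblast, which grew on inactivated embryonic fibroblasts in medium containing 20% serum replacement. The group without Activin A, 3 libraries, received SB431542 (2 µM), IWP2 (5 µM) and FGF2 (10 ng/mL). The group with Activin A, also 3 libraries, received the same 3 agents and Activin A (20 ng/mL). SB431542, an inhibitor of the type I receptors that Activin itself uses, was thus in both media, as was IWP2, a blocker of Wnt secretion.

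Groups were taken from the titles and genotype labels. For replicate 1 of the group without Activin A, another label that lists growth factors names Activin A all the same, and 1 treatment text, which lists Activin A, is given for all 6 libraries. The series' design text speaks of 2 lines, whereas the sample labels name none. A difference between lines and the effect of Activin A cannot be told apart if the groups differ in line. Separate cultures are not stated either, so the p-values below cover the spread among these libraries, which can be technical. The library with Activin A replicate 3 was the shallowest at 9946521 estimated reads, against 13567995 to 16350923 in the other 5, and stood apart from its group on the second principal component.

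DNA methylation at CpG sites is copied after replication by DNMT1, which UHRF1 brings to hemimethylated DNA, and is set anew by DNMT3A and DNMT3B, with DNMT3L as an inactive cofactor. TET1, TET2 and TET3 oxidise 5-methylcytosine, and TDG excises the most oxidised bases so that repair can restore cytosine. During implantation the epiblast passes from a nearly unmethylated to a highly methylated genome, and primed cells express the de novo enzymes strongly. RNA levels were measured here, and neither DNA methylation nor enzyme activity was.

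In read counts without Activin A, the de novo methyltransferase genes Dnmt3b and Dnmt3a were lower and the dioxygenase gene Tet3 was higher. The maintenance genes Dnmt1 and Uhrf1 were slightly higher. Of the 9 genes 8 had enough reads to be tested, and 5 were called at a 0.05 threshold on the adjusted p (edgeR, quasi-likelihood), 3 higher and 2 lower. Of all 15448 genes that were tested, 29.2% were called, 14.0% higher and 15.2% lower. The median log2 fold change was 0.03 for the 8 genes and 0.00 for all genes tested. Tet1, Tet2 and Tdg did not pass, and Dnmt3l was too low to be tested. Of the 5 calls, only that of Dnmt3b held under every alternative that was run. Log2 fold changes are without minus with Activin A, and levels are given in CPM, read counts relative to the library's total after TMM scaling, or in TPM, which also divides by transcript length and so allows genes to be compared. The value after ± is the SD of 3 libraries for a level, share or ratio and the standard error for a log2 fold change. In such bulk RNA, fewer cells of a type and less RNA per cell cannot be told apart.

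**Figure D1:**
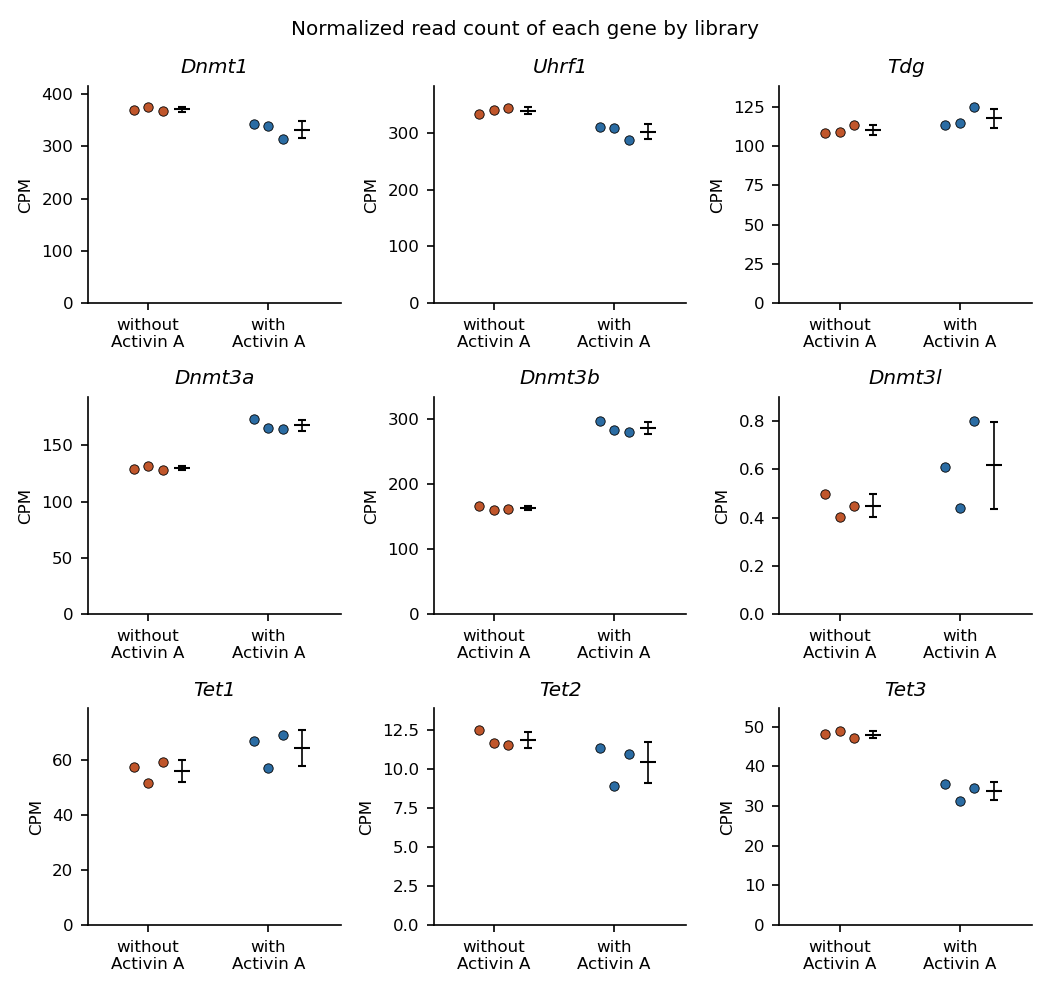
Normalized read count (CPM, linear axes from 0) of the 9 genes in each library, without Activin A on the left and with Activin A on the right. Points are libraries and bars are the mean ± SD (n = 3 each). Dnmt3b and Dnmt3a sit lower and Tet3 higher without Activin A with no overlap, while Tet1, Tdg and Dnmt3l overlap. Dnmt1, Uhrf1 and Tet2 also do not overlap.

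The cells carried the transcripts that mark epiblast stem cells, at levels that differed between the groups. All 10 epiblast markers were tested, of which 3 were higher and 6 lower without Activin A, and their summed level was 1235 to 1260.4 CPM without and 1637 to 1675 CPM with Activin A. Pou5f1, which encodes OCT4, had 121 ± 2.35 CPM without and 374 ± 28.1 CPM with Activin A. Lin28a went the other way, with 537 ± 5.48 CPM without and 338 ± 9.1 CPM with Activin A. All 15 fibroblast markers were tested, of which 3 were higher and 5 lower, and their sum was 830 to 844 CPM without and 640 to 706 CPM with Activin A. Col1a1 (341 ± 6.38 CPM without, 234 ± 25.3 CPM with Activin A) and Col1a2 (212.5 ± 2.86 and 124 ± 3.76 CPM) made up most of this sum. These and Col5a1 were higher, whereas Col3a1, Thy1, Dcn, Postn and Lox were lower, so the sum does not stand for the markers as a set. Of 8 neural markers 7 were tested, of which 1 was higher and 4 lower, with sums of 207 to 208 CPM without and 289 to 294 CPM with Activin A. Of 7 primordial germ cell markers 4 were tested, 1 was higher (Tfap2c), and Prdm14, Dppa3 and Nanos3 were at or near 0. The part of these shifts in the results below was not tested.

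Per length, Uhrf1 had the highest level of the 9 genes in both groups, and the de novo and maintenance enzymes stood far above the TET genes. Without Activin A, Uhrf1 had 98.96 ± 5.00 TPM, followed by Dnmt3a (49.3 ± 5.72 TPM), Dnmt1 (46.7 ± 1.93 TPM), Dnmt3b (32.2 ± 1.83 TPM) and Tdg (27.2 ± 1.22 TPM). Tet1 had 5.76 ± 0.599 TPM, Tet3 2.9 ± 0.0942 TPM, Tet2 2.11 ± 0.396 TPM and Dnmt3l 0.392 ± 0.253 TPM (SD, n = 3). In this group only Dnmt3a and Dnmt1 were neighbours whose ranges overlapped. With Activin A, Uhrf1 (79.8 ± 7.33 TPM) was followed by Dnmt3b (52.7 ± 2.79 TPM), Dnmt3a (52.4 ± 5.07 TPM), Dnmt1 (41.5 ± 1.12 TPM) and Tdg (27.2 ± 3.97 TPM). Then came Tet1 (4.79 ± 0.335 TPM), Tet3 (2.00 ± 0.231 TPM), Tet2 (1.73 ± 0.556 TPM) and Dnmt3l (0.359 ± 0.223 TPM). Here Dnmt3b and Dnmt3a overlapped, and so did Tet3 and Tet2. The place of Dnmt3a depended on the transcripts counted. Over transcripts with a complete coding sequence, Dnmt3b had 26.8 ± 0.581 TPM without and 46.5 ± 2.7 TPM with Activin A, and Dnmt3a 13.9 ± 0.527 TPM without and 16.2 ± 0.686 TPM with it. On that count Dnmt3a stood below Dnmt3b and Tdg in both groups, while Dnmt3b stood below Dnmt1 (45.9 ± 1.67 TPM) without Activin A and above it (40.6 ± 0.885 TPM) with Activin A.

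Dnmt1 encodes the maintenance methyltransferase (ENSMUSG00000004099.16, GRCm38 chromosome 9, 20907209 to 20959888, minus strand). It had 370.1, 374.5 and 367 CPM in the 3 libraries without Activin A, against 342, 339 and 313 CPM in those with it. All 3 libraries without Activin A were above all 3 with it, and the gene rose 1.12-fold, a log2 fold change of 0.16 ± 0.05 (SE, edgeR adjusted p = 0.0246). Uhrf1, whose protein reads hemimethylated CpG and recruits DNMT1, lies on chromosome 17 (ENSMUSG00000001228.14, 56303321 to 56323486, plus strand). It had 333, 341 and 344 CPM without Activin A, against 311, 309 and 287 CPM with it. The groups did not overlap, and Uhrf1 also rose 1.12-fold (log2 0.17 ± 0.05, edgeR adjusted p = 0.0187). Such separation of CPM ranges was seen for 42.9% of all genes tested. Both calls were lost on leaving out any of the libraries without Activin A, where the adjusted p was 0.0915, 0.105 and 0.0752 for Dnmt1 and 0.0555, 0.0796 and 0.0904 for Uhrf1 (replicates 1, 2 and 3 in turn, edgeR). They were also lost with upper-quartile scaling (edgeR adjusted p of 0.0685 for Dnmt1 and 0.0529 for Uhrf1).

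Dnmt1 has 2 abundant transcripts with a complete coding sequence. They differ in their 5′ end, at position 20952979 for Dnmt1-201 and 20959888 for Dnmt1-202, and in coding length, with 4860 and 4503 bases. They also differ by 3 bases at the start of an exon, chr9:20940476-20940554 in its longer form (GRCm38, minus strand). The exon is shown because most Dnmt1 reads fell to this pair, and the capitals mark the bases found in the longer form only.
Dnmt1 longer exon: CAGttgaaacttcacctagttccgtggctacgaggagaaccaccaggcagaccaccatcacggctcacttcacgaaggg
Dnmt1-201, which holds the longer form, had 197 ± 3.93 CPM without and 160.5 ± 12.1 CPM with Activin A, with no overlap. Its log2 fold change of 0.30 ± 0.06 did not pass (transcript-level edgeR adjusted p = 0.083). Dnmt1-202, which holds the shorter form, had 170.1 ± 1.51 CPM without and 173 ± 20.4 CPM with Activin A, which overlapped (log2 -0.02 ± 0.09, edgeR adjusted p = 0.945). The pair did not pass the test for a difference in transcript make-up (gene-level adjusted p = 1). The levels of the 2 transcripts rest on how salmon divided reads between them, and reads at their 5′ ends were not examined separately. Of the Uhrf1 transcripts, Uhrf1-204 (199.8 ± 16.6 CPM without, 191 ± 18.5 CPM with Activin A) and Uhrf1-203 (114 ± 10.0 and 97.3 ± 7.40 CPM in the same order of groups) overlapped between groups. Other genes, chiefly the pseudogene Gm5648, hold 24.2% of the 31-base words of Uhrf1, and Gm5648 was listed with 0 or 1 reads per library.

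Dnmt3b, the de novo methyltransferase most associated with the early embryo, showed the largest difference of the 8 tested genes (ENSMUSG00000027478.15, chromosome 2, 153649450 to 153687730, plus strand). It had 167, 161 and 161 CPM in the 3 libraries without Activin A, against 297, 283 and 280.5 CPM with it. The groups were far apart relative to the spread within each, and Dnmt3b was 1.76-fold lower (log2 -0.82 ± 0.05, SE, edgeR adjusted p = 9.77e-09). Its TPM values, 33.3, 33.2 and 30.04 without and 53.7, 49.6 and 54.9 with Activin A, gave the same order. The call held under each alternative scaling, filter, tool and left-out library that was run. Of its 31-base words 13.5% are shared with other genes, chiefly the rodent paralogue Dnmt3c, which was listed with 0 to 2 reads per library. The antisense gene Dnmt3bos had 0 to 4 reads.

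Dnmt3b is spliced in several forms, and 3 coding exons that some of its annotated transcripts skip are shown because the classes below rest on them. Exon A (chr2:153670849-153670908, 60 bases) lies upstream of the catalytic part. Exons B (chr2:153683608-153683677, 70 bases) and C (chr2:153684359-153684477, 119 bases) lie within the catalytic part and are skipped together, and forms that lack them are known to be without activity of their own. Capitals mark the exon, and lower case the 15 bases on each side in the spliced transcript Dnmt3b-202 (GRCm38, plus strand).
Dnmt3b exon A: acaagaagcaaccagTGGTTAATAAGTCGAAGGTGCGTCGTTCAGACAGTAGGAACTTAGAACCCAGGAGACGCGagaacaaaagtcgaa
Dnmt3b exon B: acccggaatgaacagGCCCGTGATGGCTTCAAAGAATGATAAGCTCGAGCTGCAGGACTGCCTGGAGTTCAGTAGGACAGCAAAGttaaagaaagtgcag
Dnmt3b exon C: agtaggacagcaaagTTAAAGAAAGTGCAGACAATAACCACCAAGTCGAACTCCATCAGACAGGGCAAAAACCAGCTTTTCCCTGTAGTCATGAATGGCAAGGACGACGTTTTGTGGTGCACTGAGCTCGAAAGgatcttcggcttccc
A further exon (chr2:153675726-153675813) is annotated in a longer form of 88 bases and a shorter one of 85 bases, which differ by the capitals.
Dnmt3b longer exon: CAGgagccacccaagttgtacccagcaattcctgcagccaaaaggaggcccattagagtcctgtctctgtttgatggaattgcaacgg

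The difference in Dnmt3b was seen in the transcripts that include exon A. Summed over the 6 annotated transcripts with exon A, the level was 125, 131 and 130.2 CPM without Activin A, against 268, 259 and 245 CPM with it, and so 2.00-fold lower in the means (129 ± 3.22 and 257 ± 11.9 CPM). Summed over the 4 coding transcripts that skip exon A, it was 36.6, 25.7 and 28.2 CPM without, against 24.4, 19.4 and 31.6 CPM with Activin A. These ranges overlapped. The share of Dnmt3b reads assigned to transcripts with exon A was 75.2%, 81.7% and 80.9% without Activin A, against 90.3%, 91.6% and 87.2% with it. The groups did not overlap and differed by 10.5 percentage points (79.2 ± 3.51% and 89.7 ± 2.27%). An exact two-sided permutation test gave p = 0.1, the smallest that 3 against 3 can reach.

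**Figure D2:**
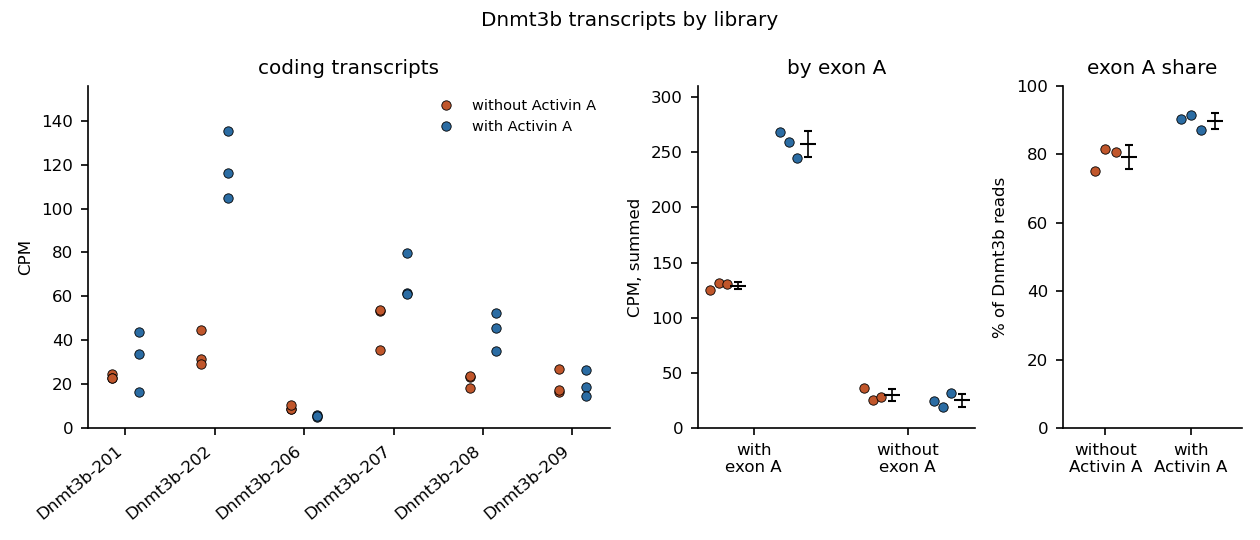
Dnmt3b transcripts by library: CPM of the 6 tested coding transcripts (left), CPM summed over transcripts with and without exon A (middle; in each pair the left points are without and the right points with Activin A), and the percentage of Dnmt3b reads in transcripts with exon A (right). Points are libraries, and the bars in the middle and right plots are the mean ± SD (n = 3 each). Dnmt3b-202 and the sum with exon A are lower without Activin A, while the sum without exon A overlaps between the groups.

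Among single transcripts, Dnmt3b-202, which includes exons A, B and C and the shorter form of the variable exon, changed most. It had 44.9, 31.3 and 29.3 CPM without Activin A, against 104.7, 116 and 135 CPM with it. It was 3.37-fold lower (log2 -1.75 ± 0.19, transcript-level edgeR adjusted p = 0.0136), and 2.71% of the 39997 transcripts tested passed in either direction. Relative to its gene, whose value includes this transcript, it fell by 0.90 on the log2 scale (edgeR diffSpliceDGE adjusted p = 0.00225). Of 33992 transcripts, 0.430% passed that test. Dnmt3b as a whole passed the test of transcript make-up (Simes-combined adjusted p = 0.00434), which 1.37% of 8968 genes did. Leaving out replicate 2 or 3 without Activin A ended both calls of Dnmt3b-202, that of its level (edgeR adjusted p = 0.0823 and 0.0711) and that relative to its gene (edgeR adjusted p = 0.0879 and 0.111), and also that of the gene's make-up (edgeR adjusted p = 0.162 and 0.204). Leaving out replicate 2 with Activin A ended the call of its level (edgeR adjusted p = 0.0575).

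Dnmt3b-208, which includes exon A but skips B and C, had 18.4, 23.4 and 23.7 CPM without Activin A, against 45.4, 52.5 and 35.3 CPM with it. It was called 2.04-fold lower at the edge of the threshold (edgeR adjusted p = 0.049), and kept that call on leaving out only 1 of the 6 libraries. Dnmt3b-206, which skips exons A, B and C, had 8.77, 8.82 and 10.4 CPM without Activin A, against 6.12, 4.99 and 5.66 CPM with it. It was the only one of the 6 coding transcripts above with all libraries without Activin A above those with it, although it did not pass (log2 0.74 ± 0.16, edgeR adjusted p = 0.0865). Dnmt3b-209, which skips exon A alone, had 20.3 ± 5.71 CPM without and 20.01 ± 5.95 CPM with Activin A and overlapped. The remaining coding pair also did not pass, Dnmt3b-207 at 47.6 ± 10.4 CPM without and 67.5 ± 10.8 CPM with Activin A (edgeR adjusted p = 0.314) and Dnmt3b-201 at 23.5 ± 1.15 and 31.4 ± 13.9 CPM (edgeR adjusted p = 0.665).

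The shares of the other splice classes of Dnmt3b overlapped between the groups. Transcripts that skip exons B and C took 19.3 ± 2.49% of its reads without and 17.1 ± 2.78% with Activin A. Those with the longer variable exon took 43.8 ± 6.48% without and 33.7 ± 6.83% with Activin A. Those with the alternative leader exon took 15.2 ± 0.985% without and 10.7 ± 4.44% with Activin A, where the library with Activin A replicate 3 was lowest at 5.82%. The exact permutation p was 0.4 for the first, 0.2 for the second and 0.2 for the third of these classes. Shares rest on how salmon divided reads among overlapping transcripts, and the uncertainty of that division is not part of these tests.

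Dnmt3a, the second de novo enzyme, was lower in reads but not in total TPM (ENSMUSG00000020661.15, chromosome 12, 3806007 to 3914443, plus strand). It had 129, 132 and 128 CPM without Activin A, against 173, 165 and 165 CPM with it. The groups did not overlap, and Dnmt3a was 1.30-fold lower (log2 -0.37 ± 0.05, SE, edgeR adjusted p = 3.66e-05). The TPM values, 55.3, 48.9 and 43.8 without and 53.6, 46.8 and 56.7 with Activin A, overlapped. The call was lost when an offset for average transcript length was used (log2 -0.12, edgeR adjusted p = 0.434), and limma-trend on log2(TPM + 1) did not call it (log2 -0.09, adjusted p = 0.681). It held on leaving out each of the 6 libraries.

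The gene encodes a long protein form from an upstream start and a short form, which lacks the N-terminal region and is known from embryonic stem cells and germ cells, from an internal promoter. The annotated coding start lies at position 3835198 for the long form and at 3895573 for the short. An upstream promoter and the internal one are shown because the shares of the forms did not overlap between the groups. The upstream one shown lies at the annotated start of the long transcript Dnmt3a-218 (3807160), and the other long transcript, Dnmt3a-201, starts at 3807030. Both promoters run from 250 bases before to 50 after the start of transcription in RefSeq (GRCm38.p6, plus strand). Capitals mark CAGAC, a word bound by SMAD3 and SMAD4.
Dnmt3a upstream promoter, chr12:3806910-3807209: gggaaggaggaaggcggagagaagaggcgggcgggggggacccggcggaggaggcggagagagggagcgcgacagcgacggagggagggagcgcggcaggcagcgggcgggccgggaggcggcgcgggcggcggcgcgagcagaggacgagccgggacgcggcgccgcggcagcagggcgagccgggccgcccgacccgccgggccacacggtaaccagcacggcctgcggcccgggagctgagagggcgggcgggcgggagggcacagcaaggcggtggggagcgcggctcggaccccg
Dnmt3a internal promoter, chr12:3891494-3891793: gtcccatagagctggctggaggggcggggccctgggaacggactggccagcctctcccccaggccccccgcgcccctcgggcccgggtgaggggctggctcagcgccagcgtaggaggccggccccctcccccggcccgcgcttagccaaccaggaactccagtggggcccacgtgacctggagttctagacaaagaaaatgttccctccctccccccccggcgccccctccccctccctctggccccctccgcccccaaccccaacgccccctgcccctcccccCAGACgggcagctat
The upstream promoter holds 47 CpG sites and no CAGAC on either strand, and the internal one 18 CpG sites and 1 CAGAC. A further upstream RefSeq promoter of Dnmt3a, chr12:3806730-3807029, is not shown and held 46 CpG sites and no CAGAC. The median over 32817 RefSeq promoters was 7 CpG sites, and 49.6% of them held CAGAC on either strand. RefSeq gave 16 promoters for the 9 genes, of which 6 held the word. The Dnmt3b promoter (chr2:153649199-153649498) held 30 CpG sites and no CAGAC.

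The difference in Dnmt3a reads was seen in the long form. Its 2 transcripts summed to 88.3, 95.2 and 92.5 CPM without Activin A, against 132, 125 and 128 CPM with it, which is 1.40-fold lower in the means. The 2 transcripts of the short form summed to 25.2, 24.3 and 24.1 CPM without Activin A, against 26.2, 28.03 and 22.7 CPM with it, and overlapped. As shares of Dnmt3a reads, the long form took 70.95 ± 2.03% without and 76.6 ± 1.28% with Activin A, and the short form 18.9 ± 0.602% without and 15.3 ± 1.6% with it. Neither share overlapped between groups, with an exact permutation p of 0.1 for each, the smallest possible. As shares of TPM, the short form overlapped, at 15.2 ± 1.42% without and 14.3 ± 1.56% with Activin A.

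**Figure D3:**
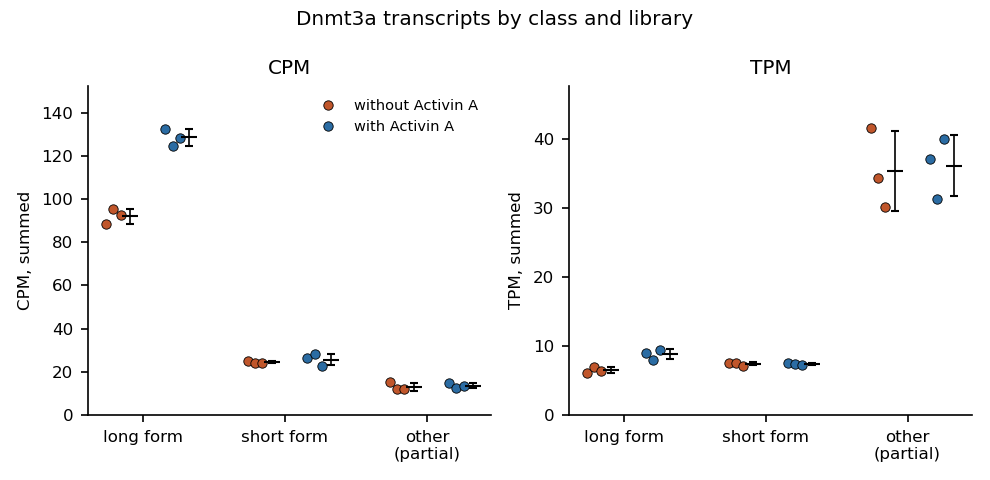
Dnmt3a transcripts summed by class in CPM (left) and TPM (right). In each pair the left points are libraries without and the right points libraries with Activin A, with the mean ± SD (n = 3 each). The long form is lower without Activin A on both scales, and the other, mostly short and partial transcripts hold few reads but most of the TPM.

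The remaining 14 annotated Dnmt3a transcripts, partial or noncoding, held 13.1 ± 1.78 CPM without and 13.6 ± 0.965 CPM with Activin A. Because TPM divides by length, they nevertheless made up 35.4 ± 5.76 TPM without and 36.2 ± 4.40 TPM with Activin A. Over the 4 transcripts with a complete coding sequence, a subset chosen after the values had been seen, Dnmt3a had 13.7, 14.6 and 13.6 TPM without Activin A, against 16.5, 15.5 and 16.7 TPM with it, and the groups did not overlap. Of the long form, Dnmt3a-201 had 40.08, 42.2 and 42.3 CPM without Activin A, against 77.2, 97.4 and 76.4 CPM with it. It was 2.01-fold lower (log2 -1.01 ± 0.11, edgeR adjusted p = 0.0115), a call that was lost on leaving out any library without Activin A (edgeR adjusted p of 0.0755 to 0.0863). Dnmt3a-218, which has a coding sequence of the same length, had 50.3 ± 2.51 CPM without and 47.1 ± 15.3 CPM with Activin A and overlapped (edgeR adjusted p = 0.916). In replicate 2 with Activin A, Dnmt3a-201 was at its highest (97.4 CPM) and Dnmt3a-218 at its lowest (29.6 CPM). The levels of these 2 transcripts rest on how salmon divided reads between them. Dnmt3a-205, of the short form, had 24.5 ± 0.595 CPM without and 24.7 ± 1.57 CPM with Activin A. The make-up of Dnmt3a transcripts did not pass as a whole (Simes-combined adjusted p = 0.182), but passed with replicate 3 of the group with Activin A omitted (edgeR adjusted p = 0.00775). The antisense gene Dnmt3aos had 0 to 2 reads per library.

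Dnmt3l, the inactive partner that stimulates DNMT3A in germ cells and embryonic stem cells, was barely detected (ENSMUSG00000000730.13, chromosome 10, 78041947 to 78063622, plus strand). It had 7, 6 and 6 estimated reads without Activin A, against 10, 6 and 8 with it, and did not pass the filter on low counts. So few reads cannot show a difference. The gene Aire overlaps it on the opposite strand and had 30 to 56 reads per library.

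Of the 3 TET genes, which encode the dioxygenases, Tet3 passed and the other two did not (ENSMUSG00000034832.15, chromosome 6, 83362373 to 83459084, minus strand). It had 48.04, 48.8 and 47.03 CPM without Activin A, against 35.5, 31.2 and 34.6 CPM with it. The groups did not overlap, and Tet3 rose 1.42-fold (log2 0.51 ± 0.07, edgeR adjusted p = 3.66e-05). The call held with each library left out and was lost with limma-trend on TPM (log2 0.38, adjusted p = 0.0527). Nearly all of its reads fell to Tet3-202, which was 1.38-fold higher (46.7 ± 1.5 CPM without, 33.9 ± 2.19 CPM with Activin A, edgeR adjusted p = 0.0337). That transcript's call was lost with any library left out (edgeR adjusted p of 0.0636 to 0.147).

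Tet1, the TET gene best known from pluripotent cells, had the highest TPM of the TET genes (ENSMUSG00000047146.17, chromosome 10, 62804570 to 62908996, minus strand). It had 57.3, 51.4 and 58.99 CPM without Activin A, against 66.7, 56.8 and 68.8 CPM with it. The groups overlapped, and the log2 fold change of -0.20 ± 0.08 did not pass (edgeR adjusted p = 0.0685, 95% interval -0.35 to -0.05). With replicate 2 of the group with Activin A omitted, it passed (log2 -0.28, edgeR adjusted p = 0.00941). On the TPM scale the direction was the other way, with 5.58, 6.43 and 5.28 TPM without and 5.15, 4.48 and 4.75 TPM with Activin A. Over its 2 transcripts with a complete coding sequence, Tet1 had 2.44 ± 0.116 TPM without and 2.82 ± 0.465 TPM with Activin A, which overlapped. No direction is therefore given for Tet1.

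Tet2 had the lowest level of the TET genes in CPM (ENSMUSG00000040943.12, chromosome 3, 133463679 to 133545139, minus strand). It had 12.5, 11.7 and 11.5 CPM without Activin A, against 11.4, 8.93 and 10.97 CPM with it, and its log2 fold change of 0.19 ± 0.11 did not pass (edgeR adjusted p = 0.223, 95% interval -0.03 to 0.40). Its CPM ranges lay close together but did not overlap, as was the case for 42.9% of all genes tested. Its TPM values overlapped, and so did the CPM of its main coding transcript, Tet2-204, at 7.72 ± 1.44 without and 5.97 ± 1.11 with Activin A. At 110 to 186 reads per library, Tet2 was measured less precisely than the other tested genes here.

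Tdg, the glycosylase that removes formylcytosine and carboxylcytosine, did not pass (ENSMUSG00000034674.18, chromosome 10, 82629828 to 82650799, plus strand). It had 108, 109 and 114 CPM without Activin A, against 113, 115 and 125 CPM with it, with a log2 fold change of -0.09 ± 0.05 (edgeR adjusted p = 0.234, 95% interval -0.20 to 0.01). The ranges overlapped. Of its 31-base words 46.8% occur in other genes, chiefly the pseudogenes Tdg-ps (213 to 316 reads per library) and Gm9855 (539 to 968 reads), so its own count is uncertain.

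**Figure D4:**
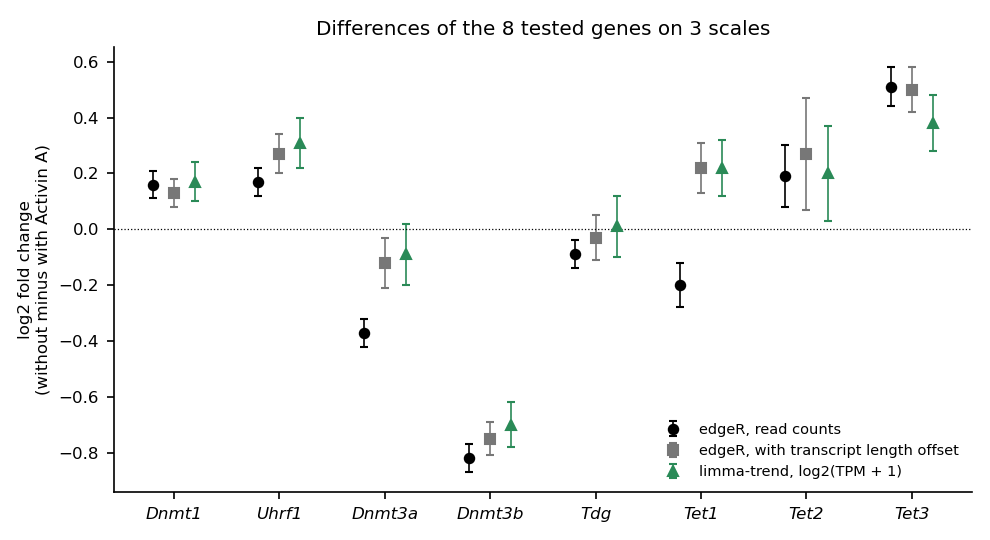
Log2 fold change (without minus with Activin A) with its standard error for the 8 tested genes on 3 scales: edgeR on read counts, edgeR with an offset for average transcript length, and limma-trend on log2(TPM + 1). Dnmt3b is lowest and Tet3 highest on each scale, Dnmt3a moves toward 0 with length taken into account, and Tet1 changes sign.

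Ratios within a library do not depend on the scaling between libraries, and 7 of them were compared. Dnmt3b to Dnmt3a was 0.602, 0.678 and 0.685 in TPM without Activin A, against 1.001, 1.06 and 0.968 with it, a log2 difference of -0.63 with no overlap. Over transcripts with a complete coding sequence only, the ratio was 1.92 ± 0.0306 without and 2.86 ± 0.0464 with Activin A. The summed TPM of Dnmt1, Dnmt3a and Dnmt3b over that of the TET genes was 13.1, 10.9 and 11.8 without Activin A, against 17.2, 18.1 and 16.5 with it, also with no overlap (log2 -0.53). Tet1 to Tet3 was 1.98 ± 0.141 without and 2.41 ± 0.212 with Activin A (log2 -0.28, no overlap), and 0.851 ± 0.0704 and 1.43 ± 0.0905 over complete coding transcripts. Which of Tet1 and Tet3 was higher per length without Activin A thus depended on the transcripts counted. Uhrf1 to Dnmt1 did not overlap on TPM (2.12 ± 0.129 without, 1.92 ± 0.128 with Activin A) and did over complete coding transcripts (1.40 ± 0.0239 and 1.41 ± 0.0142). Each of these 4 ratios had an exact two-sided permutation p of 0.1, the smallest possible, and 0.175 after adjustment over the 7. The ratios Dnmt3l to Dnmt3b, Tet1 to Tet2 and Tet2 to Tet3 overlapped on TPM.

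**Figure D5:**
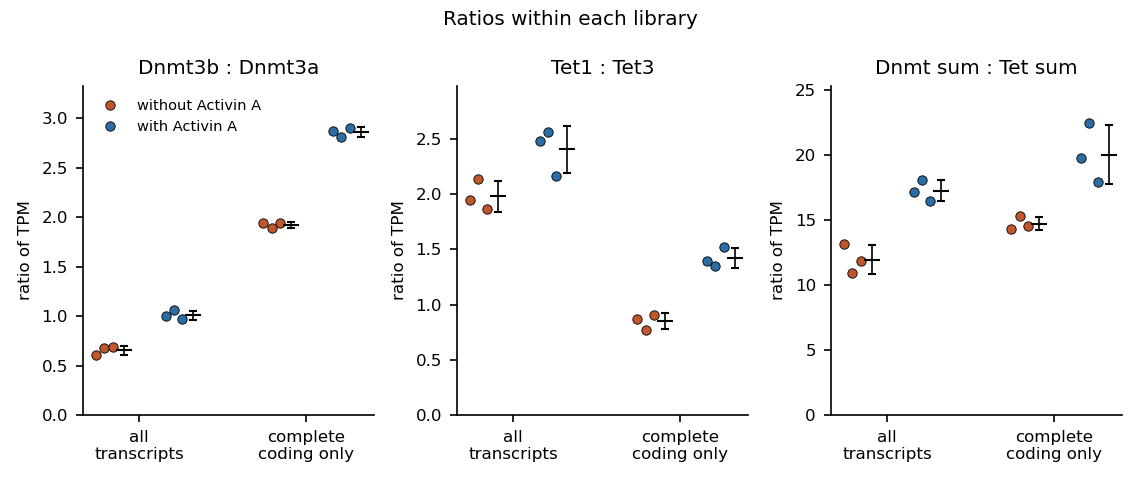
Ratios of TPM within each library for Dnmt3b to Dnmt3a, Tet1 to Tet3, and the 3 active methyltransferases to the 3 TET genes, over all transcripts (left pair) and over transcripts with a complete coding sequence (right pair). In each pair the left points are libraries without and the right points libraries with Activin A, with the mean ± SD (n = 3 each). Each pair is lower without Activin A and does not overlap.

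Genes that work beside these enzymes were grouped in lists, and 29.2% of all genes tested were called. The share of tested members that passed was above this among TET partners and methyl donor genes. It was near it among readers and cell cycle genes and below it among maintenance partners. Calls among TET partners and methyl donor genes were fewer with the length offset and with limma-trend, as were those over all genes. Of 9 methyl-CpG readers, 3 rose, 0 fell and 6 did not pass (median log2 0.16). Uhrf2, the paralogue of Uhrf1, rose 1.36-fold (138 ± 3.38 CPM without, 102 ± 5.76 CPM with Activin A, edgeR adjusted p = 2.42e-05), and Mbd1 rose 1.16-fold, a call kept on leaving out 2 of the 6 libraries. Zbtb38, a reader of methylated DNA, rose 1.41-fold in reads but had a negative log2 fold change with the length offset (-0.98) and with limma-trend on TPM (-0.38). Its TPM was high in 1 library only, with 12.15, 0.933 and 1.41 TPM with Activin A, against 1.78, 2.52 and 1.82 TPM without it. Of 17 tested maintenance and targeting partners, 3 rose, 0 fell and 14 did not pass (median 0.03). The 3 were the H3K9 methyltransferase gene Ehmt2 (1.16-fold), the H3K36 methyltransferase gene Nsd1 (1.14-fold), whose mark recruits DNMT3A, and Setd2 (1.15-fold), whose mark recruits DNMT3B. On leaving out each of the 6 libraries in turn, these calls were kept 3 times for Ehmt2, 4 times for Nsd1 and 3 times for Setd2. The log2 fold change of Setd2 was -0.09 once the length offset was used and -0.04 in limma-trend on TPM. Hells, Cdca7 and Pcna, which serve maintenance at the replication fork, did not pass (log2 -0.13, -0.07 and -0.03).

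Among 19 tested TET partners and base excision genes, 5 rose, 6 fell and 8 did not pass (median 0.05). Gadd45a, a stress-induced gene implicated in TET- and TDG-dependent demethylation, had the largest rise, 2.29-fold (67.02 ± 1.27 CPM without, 29.1 ± 2.57 CPM with Activin A, edgeR adjusted p = 6.28e-09). Gadd45b and Gadd45g did not pass. Ogt, which encodes a glycosyltransferase that binds TET proteins, rose 1.20-fold, Parp1 1.13-fold and the cytidine deaminase relative Apobec2 1.43-fold. Apobec1 fell 1.42-fold (33.7 ± 1.39 CPM without, 47.7 ± 2.42 CPM with Activin A), Apobec3 1.24-fold, and the glycosylase genes Neil1 and Ung 1.26- and 1.16-fold. Leaving out each of the 6 libraries in turn kept the calls of Ung 2 times, of Neil1 and Apobec2 4 times and of Parp1 5 times, and those of Gadd45a, Ogt, Apobec1 and Apobec3 each time. DESeq2 called 6 members of the list, against 11 with edgeR.

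Of 14 tested methyl donor genes, 5 rose, 3 fell and 6 did not pass (median 0.04). Mthfd1, a trifunctional enzyme of folate metabolism in the cytosol, fell 2.00-fold (373 ± 6.21 CPM without, 744 ± 24.2 CPM with Activin A, edgeR adjusted p = 1.09e-09). Its mitochondrial relative Mthfd2 rose 1.32-fold (90.2 ± 0.174 CPM without, 68.3 ± 0.214 CPM with Activin A). The glycine cleavage gene Gldc and the serine hydroxymethyltransferase gene Shmt2 each fell 1.19-fold, while Mtr and Ahcyl1 rose 1.16- and 1.13-fold. The calls of Mtr and Ahcyl1 were each kept on leaving out only 1 of the 6 libraries (highest edgeR adjusted p of 0.0896 and 0.105), and that of Shmt2 on leaving out 3. Mat2a, which makes S-adenosylmethionine, did not pass (127 ± 3.33 CPM without, 120.3 ± 10.3 CPM with Activin A).

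Germline genes whose promoters are methylated in the epiblast were at low levels in both groups. Of 15, 2 passed the filter, and 5 (Mael, Taf7l, Tex101, Stk31 and Syce1) had 0 reads in each library. Sycp1, of the synaptonemal complex, was called higher at 2.64 ± 0.563 CPM without and 1.52 ± 0.367 CPM with Activin A (edgeR adjusted p = 0.0333). That call was kept on leaving out 1 of the 6 libraries only and was lost with DESeq2 (adjusted p = 0.118). Of 18 S phase and cell cycle genes, which often vary with Dnmt1 and Uhrf1, 3 rose (Ccnb1, Mki67 and Ccna2, 1.14-, 1.11- and 1.12-fold), 2 fell (E2f1 and Ccne1, 1.35- and 1.18-fold) and 13 did not pass (median 0.02). The calls of Mki67 and Ccna2 were kept on leaving out 2 of the 6 libraries, and those of Ccnb1, E2f1 and Ccne1 on leaving out any of them. Their sum was 5201 to 5278 CPM without and 5016 to 5178 CPM with Activin A, with no overlap, and its part in the small rise of Dnmt1 and Uhrf1 was not tested.

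The list counts moved when single libraries were left out. So did the calls over all genes, from 4505 with all libraries to between 3246 and 5689. Without replicate 1 of the group without Activin A, the one with the conflicting label, 1 of the 9 genes described here rose and 2 fell, and the calls were 2 higher among readers, 2 higher among maintenance partners, 3 higher and 4 lower among TET partners, 1 higher and 2 lower among methyl donor genes, and 0 among germline genes. With replicate 3 of the Activin A group left out, 3 of the 9 genes rose and 2 fell, and the maintenance partners had 5 higher, the TET partners 6 higher and 7 lower, and the cell cycle genes 5 higher and 4 lower.

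The genes whose CPM followed Dnmt3b most closely over the 6 libraries, among 11390 genes averaging 5 CPM or more, were Spock2, Cntn2 and Zic2 (Pearson r of 0.9998, 0.9998 and 0.9994 on the log2 scale). Spock2 had 15.3 ± 0.632 CPM without and 37.8 ± 1.45 CPM with Activin A, Cntn2 9.59 ± 0.488 and 36.4 ± 3.38 CPM, and Zic2 88.01 ± 2.23 and 147 ± 3.29 CPM in the same order. For Tet3 they were Rbm33, Zfp516 and Phlpp1 (r of 0.9990, 0.9977 and 0.9976). With 2 groups of 3 libraries, any gene that separates the groups cleanly gives a high r, and these names are a description only.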

How the data were processed

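RNA was measured in 6 libraries of mouse epiblast stem cells prepared with a stranded TruSeq mRNA kit, 3 without and 3 with Activin A. The submitters' processing notes name Salmon, edgeR and DESeq2, without versions. The authors deposited 1 table per library, which holds, per the file headers, the length, effective length, TPM and estimated count (NumReads) of 133618 transcripts. The sources used here do not give the genome build, the annotation or the strand setting. Transcripts were matched, version ignored, to GENCODE M21 (GRCm38), which left 219 unmatched with 0.131 to 0.149% of reads. Effective length was the same in all files, so no library-specific bias correction of length is visible.

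Estimated counts were summed per gene, rounded, filtered (filterByExpr, minimum count 10, minimum total 15), scaled by TMM and tested with edgeR 4.0.16 (quasi-likelihood, robust) in R 4.3.3, with Benjamini-Hochberg adjustment over all 15448 genes and a threshold of 0.05. Transcripts were tested in the same way and their usage with diffSpliceDGE. Intervals are the log2 fold change ± 1.96 SE. DESeq2 1.42.0 and limma 3.58.1 on log2(TPM + 1) were alternatives, beside other scalings and filters, an average-length offset, protein-coding genes only, a replicate block and each library left out. Both the 9 genes and the gene lists were chosen with earlier results of these data known. From each pathway list, the called genes with the smallest p were named, up to 4 in each direction, and a few uncalled ones for their known role, chosen after their values were seen. A gene that this rule would name is not reported here. The marker lists are given by counts and summed levels, and the called genes named from them were also chosen after their values were seen. Individual transcripts are described where their mean was at least 5 CPM. Total depth was 9946521 to 16350923 estimated reads. Scripts were checked on simulated counts. There the gene test recovered 68.0% of 1.5-fold and 99.0% of 3-fold changes. The transcript test recovered 3.0% of 1.5-fold and 26.0% of 3-fold changes, and 6.45% of its calls were false. The usage test recovered 8.45% of 3-fold changes. A transcript or make-up that did not pass is therefore not shown to be unchanged.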

Additional observations from a re-analysis of the deposited data

How the results depend on the processing

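Dnmt3b kept its direction and call under every gene-level alternative that was run. With upper-quartile scaling the log2 fold change was 0.13 for Dnmt1, 0.13 for Uhrf1 (neither called) and -0.23 for Tet1 (called). With the length offset it was 0.13 for Dnmt1, -0.12 for Dnmt3a (neither called) and 0.22 for Tet1, and with limma-trend on TPM 0.17 for Dnmt1, 0.31 for Uhrf1, -0.09 for Dnmt3a, 0.38 for Tet3, 0.22 for Tet1 and 0.01 for Tdg (none called). Tet1 passed without a low-count filter (-0.19). Leaving out 1 library gave 0.12 to 0.18 for Dnmt1, 0.13 to 0.19 for Uhrf1 and -0.28 to -0.14 for Tet1. The causes were not tested. Over all genes, 4505 calls became 2050 (937 higher, 1113 lower) with the length offset, 1559 (778 higher, 781 lower) with limma-trend and 3365 with DESeq2, and with upper-quartile scaling 1737 of 4439 calls were higher.

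Calls in the gene lists were, with the length offset and with limma-trend, 3 and 1 among the 9 genes, 0 and 0 among readers, 1 and 0 among maintenance partners, 3 and 2 among TET partners (6 with DESeq2), 4 and 3 among methyl donor genes, 0 and 0 among germline genes (0 with DESeq2, 2 without a filter), and 3 and 0 among cell cycle genes. With 1 library left out they were 3 to 6, 2 to 3, 0 to 5, 6 to 13, 3 to 8, 0 to 1 and 3 to 9 in the same order of lists. The calls over all genes were then 3246 to 5689. Zbtb38 turned to -0.98 and -0.38, and Setd2 to -0.09 and -0.04, with the offset and limma-trend. The TPM of Zbtb38 was high in replicate 1 with Activin A only.

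The share of the Dnmt3a long form differed by -3.51 percentage points in TPM and that of the short form by 0.90. In CPM the log2 differences of the ratios were -0.44 for Dnmt3b to Dnmt3a, 0.01 for Uhrf1 to Dnmt1, -0.39 for Tet1 to Tet2, -0.70 for Tet1 to Tet3 and -0.34 for the methyltransferases to the TET genes. Over complete coding transcripts, a choice made after seeing the data, they were -0.01 for Uhrf1 to Dnmt1, -0.64 for Tet1 to Tet2 and -0.75 for Tet1 to Tet3. Over protein-coding transcripts they were -0.80 for Tet1 to Tet2 and 0.42 for Tet2 to Tet3. Tet1 to Tet2 ranged from -0.31 to 0.07 with 1 library left out.

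Replicate numbers recur in both groups, but the deviations of same-numbered libraries did not go together (correlations of -0.0249, -0.0521 and -0.057 over 15448 genes). The labels do not say whether the numbers pair cultures, and these correlations cannot settle it. With the replicate block, 4422 genes were called, Tet1 passed (log2 -0.20), 56 transcripts were called instead of 1084, 65 genes instead of 123 passed for transcript make-up, and Dnmt3b did not (edgeR adjusted p = 0.0986). With 1 library left out, 222 to 970 transcripts and 161 to 235 genes passed these tests, and the adjusted p (edgeR) for make-up was 0.0019 to 0.204 for Dnmt3b and 0.00775 to 1 for Dnmt3a. Transcripts that changed sign were not called: Dnmt1-202 (-0.11 to 0.07), Dnmt3a-205 (-0.07 to 0.02), Dnmt3a-218 (-0.15 to 0.28), Dnmt3b-209 (-0.23 to 0.27), Tdg-208 (-0.37 to 0.00), Uhrf1-204 (-0.00 to 0.15) and, relative to its gene, Dnmt3a-210 (-0.13 to 0.09). The low read numbers of Dnmt3l, Tet2 and single transcripts limit what these libraries can show.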
